A study of Mus musculus with 18 samples.

Results

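Monocytes were sorted from the spleens of C57BL/6 wild-type (WT) mice on day 3, and messenger RNA of 3 mice given IVIg was compared with that of 3 mice given PBS. IVIg is intravenous immunoglobulin, immunoglobulin G pooled from blood donors and used as an anti-inflammatory drug, and PBS is phosphate-buffered saline, given to the control animals. These 6 libraries were taken by their genotype and treatment labels and are 33.3% of the 18 libraries of the series, which also holds IVIg and PBS groups of 3 for Dectin-1 knockout (-/-) and FcgRIIb knockout (-/-) mice. All groups are sorted spleen monocytes of day 3, and the WT animals carry neither deletion. The series is about the part that Dectin-1 and FcgRIIb play in the response of monocytes to IVIg, and the WT pair is the response with both receptors in place. The labels give no sorting gate, dose, age or disease model, so the groups describe monocytes of mice given IVIg and nothing beyond that.

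Mouse blood and spleen hold 2 main kinds of monocyte. Classical monocytes carry Ly6C and Ccr2 and enter inflamed tissue, while non-classical monocytes carry little Ly6C, depend on the transcription factor Nr4a1 and patrol the vessel wall. Immunoglobulin G acts on monocytes through Fc gamma receptors: Fcgr1, Fcgr3 and Fcgr4 activate the cell through the common chain Fcer1g, Fcgr2b inhibits it, and the neonatal receptor Fcgrt recycles the antibody. Fcgr4 and several lipid-handling and CD300 genes are known to be more abundant in the non-classical kind.

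The libraries carried the defining genes of monocytes. Lyz2, the myeloid lysozyme, had 16190, 14560 and 25320 CPM (counts scaled to a common library size) in the IVIg libraries and 25870, 20110 and 17590 CPM in the PBS libraries. Csf1r, the receptor for the monocyte growth factor, lay between 2476 and 2772 CPM in the IVIg libraries and between 2360 and 2777 CPM in the PBS libraries. Cd3e of T cells and Ly6g of neutrophils stayed under 1 CPM in all 6 libraries, and Vsig4 of tissue macrophages had 0 counts in all 6.

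Of 17040 genes tested, 1 passed an adjusted p of 0.05 between IVIg and PBS. The test was edgeR's quasi-likelihood test with Benjamini-Hochberg adjustment, fitted over all 18 libraries. The gene, Gm9574, is an unnamed gene model on chromosome 17 (ENSMUSG00000073980, chr17:36448080-36449997, GRCm39). It had 15, 1 and 0 counts in the IVIg libraries, against 228, 30 and 273 counts in the PBS libraries. Gm9574 was thus lower in all 3 IVIg libraries than in any PBS library, though PBS replicate 2 held far fewer counts than the other two. Its log2 fold change was -5.19 ± 0.84 (SE), with an adjusted p of 0.0187 in edgeR. Gm9574 falls outside the rule for named genes and is given because it is the single call.

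Genes called lower were 0.00587% of those tested and genes called higher were 0%. At an unadjusted p under 0.05 there were 239 higher and 190 lower genes, together 2.52% of those tested, whereas 852 genes would fall there by chance. DESeq2 made 1 call, Klf5, with 0 counts in each IVIg library and 1, 12 and 0 counts in the PBS libraries. In 587 genes (3.44%) all 3 IVIg libraries lay above all 3 PBS libraries, and in 491 genes (2.88%) all lay below. For a single value, 3 libraries against 3 allow no exact two-sided p under 0.1. Apart from Gm9574, every gene of the WT comparison below missed the adjusted threshold, with an adjusted p of 1, so the fold changes below are values and not changes.

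Treatment was not the main axis on which the 6 libraries differed. IVIg replicate 1 and PBS replicate 3 were the most alike of the 15 pairs, with a Spearman correlation of 0.988 across genes, although 1 is labelled IVIg and the other PBS. The counts offer no check of the treatment labels, so an exchange of these 2 libraries cannot be told apart from mice that resemble each other. Such an exchange would alter every fold change given here, and without the pair the median log2 fold change of the non-classical markers below was 0.68 in place of 0.58. On the first principal component, which took 42.4% of the variance, they lay at 73.5 and 74.3, against -69.0 and -51.5 for IVIg replicates 2 and 3 and -32.2 and 4.93 for PBS replicates 1 and 2. The deviation of a gene from its mean over the 18 libraries of the series went with its length. The rho was 0.581, -0.298 and -0.348 in the IVIg libraries and 0.248, 0.363 and 0.535 in the PBS libraries. Across the 5288 genes of at least 5 average log2 CPM, the log2 fold change correlated with gene length at a rho of -0.419. Rn18s, the 18S ribosomal RNA, took 0.249%, 0.693% and 1.39% of the counts of the IVIg libraries and 0.275%, 0.227% and 0.127% of those of the PBS libraries. WT totals were 40561626, 48958909 and 47385446 counts in the IVIg libraries and 35524848, 45044859 and 38844507 in the PBS libraries, so that 3 counts stand for 0.0614 to 0.0820 CPM. The part of length, Rn18s or this pair of libraries in the values below was not tested, except where a value without them is given.

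**Figure D1:**
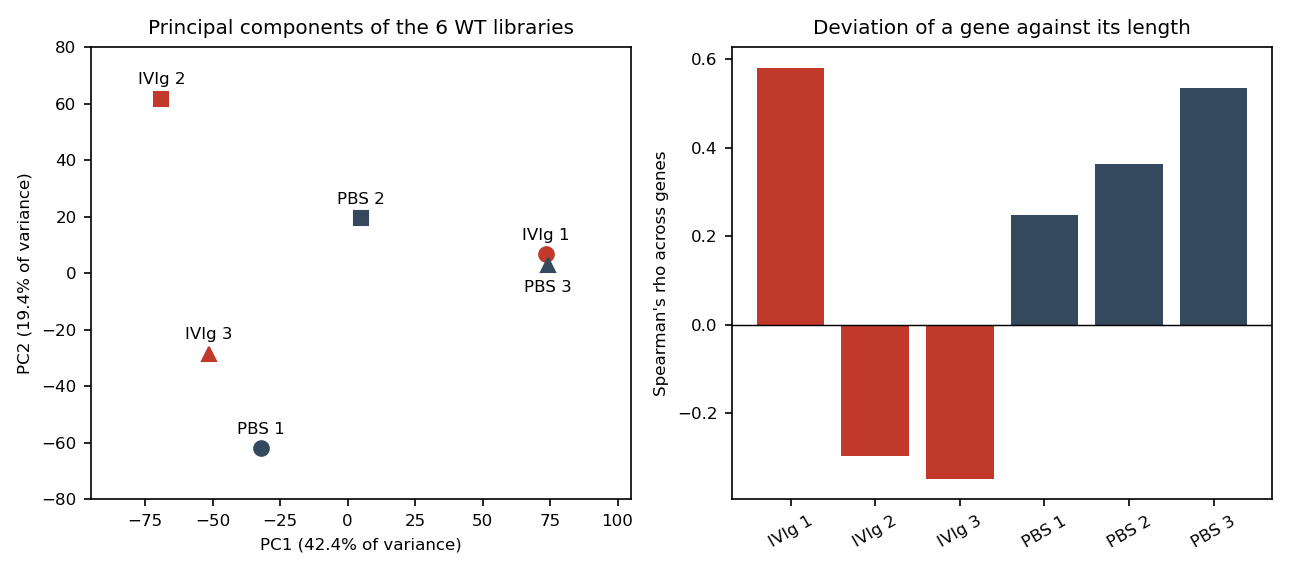
The left panel plots the 6 WT libraries on the first and second principal components of log2 CPM, with IVIg in red and PBS in dark blue. The right panel shows Spearman's rho, across genes, of each library's deviation from the mean over the 18 libraries against gene length. IVIg replicate 1 (0.581) sits with PBS replicate 3 (0.535) in both panels.

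Markers of non-classical monocytes were mostly higher with IVIg. Of 32 markers, none was called, 28 had a positive log2 fold change and 4 a negative one. In 8 markers (25%) the IVIg libraries all lay above the PBS libraries, and in 0 they all lay below, set against 3.44% and 2.88% of all genes. The list's median log2 fold change was 0.58, against 0.01 over all genes tested, and 17 of the 32 markers had an unadjusted p under 0.05 in edgeR. Much of this rested on IVIg replicate 2: without it the median was 0.34 and 3 markers had an unadjusted p under 0.05 in edgeR. It rested on PBS libraries too: 7 markers did without PBS replicate 1, and 11 without PBS replicate 3. Without IVIg replicate 1, the library most like a PBS one, 17 markers did, and 2 more did in the lower direction. In bulk RNA, more cells of a kind and more RNA per cell cannot be told apart.

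Cd300e, an activating receptor of the CD300 family, had 237, 339 and 228 CPM in the IVIg libraries, against 75.8, 152 and 137 CPM in the PBS libraries. The lowest IVIg library was well above the highest PBS library, and the log2 fold change was 1.14 ± 0.27 (SE). Eno3, the muscle form of enolase and a known marker of these cells in mice, had 178, 298 and 216 CPM in the IVIg libraries, against 89.3, 111 and 93.8 CPM in the PBS libraries. The PBS values of Eno3 were close together while the IVIg values spread, and the groups did not overlap. Pglyrp1, a peptidoglycan recognition protein, had 102, 203 and 158 CPM in the IVIg libraries, against 63.8, 97.4 and 73.7 CPM in the PBS libraries. IVIg replicate 1 was only slightly above PBS replicate 2 for Pglyrp1, whose log2 fold change was 0.98 ± 0.29 (SE).

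Treml4, a receptor on non-classical monocytes and splenic myeloid cells, had 323, 501 and 316 CPM in the IVIg libraries and 168, 269 and 282 CPM in the PBS libraries. Spn, the sialophorin CD43 by which these cells are often sorted, had 984, 1239 and 980 CPM in the IVIg libraries and 679, 858 and 633 CPM in the PBS libraries. Neither gene's groups overlapped, and both had IVIg replicate 2 highest. Adgre4, an adhesion G protein-coupled receptor, averaged 992 ± 298 CPM in IVIg libraries and 596 ± 96.3 CPM in PBS libraries (SD, n = 3 each). Gngt2, a G protein gamma subunit, averaged 447 ± 96.2 CPM in IVIg libraries and 270 ± 40.7 CPM in PBS libraries (SD, n = 3 each). Cd300ld, another CD300 receptor, averaged 178 ± 34.1 CPM in IVIg libraries and 118 ± 19.9 CPM in PBS libraries (SD, n = 3 each). These 8 markers were picked out for their groups not overlapping, after their values were seen.

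Some of the markers with the highest fold changes, Cd36 and Cd9, were far higher in IVIg replicate 2. Cd36, a fatty acid and scavenger receptor, had 160, 556 and 208 CPM in the IVIg libraries, against 113, 190 and 85.3 CPM in the PBS libraries. Cd9, a tetraspanin, had 60.7, 177 and 71.2 CPM in the IVIg libraries and 47.5, 67.5 and 35.8 CPM in the PBS libraries. In both genes IVIg replicate 1 lay inside the range of the PBS libraries, and the log2 fold change of Cd9, 1.03 ± 0.32 (SE), was 0.39 without IVIg replicate 2. Other members, chosen for their known role, differed by less than their standard error. Nr4a1, the nuclear receptor these cells need, averaged 686 ± 47.8 CPM in IVIg libraries and 605 ± 56.2 CPM in PBS libraries (SD, n = 3 each). Cx3cr1, the fractalkine receptor, averaged 1082 ± 130 CPM in IVIg libraries and 1032 ± 162 CPM in PBS libraries, and the log2 fold change of Cebpb, a transcription factor of these cells, was 0.10 ± 0.26 (SE).

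Classical markers leaned the other way, and most of them overlapped between the groups. Of 29 tested, none was called, 11 had a positive and 18 a negative log2 fold change, with a median of -0.22, which was -0.01 without PBS replicate 1 and -0.45 without IVIg replicate 3. In 0 markers the IVIg libraries all lay above the PBS libraries, and in 3 (10.3%) they all lay below, Ly6c1, Clec4d and Clec4e, set against 3.44% and 2.88% of all genes. Ly6c1 was low throughout, with 0.609, 1.413 and 1.465 CPM in the IVIg libraries and 2.131, 1.614 and 1.807 CPM in the PBS libraries. Clec4d and Clec4e encode lectins that sense mycobacterial glycolipids, and Clec4d had 9.65, 10.5 and 12.9 CPM in the IVIg libraries, against 17.7, 20.7 and 17.2 CPM in the PBS libraries. Clec4e had 42.3, 41.8 and 39.8 CPM in the IVIg libraries, against 45.6, 65.7 and 58.0 CPM in the PBS libraries, a smaller gap with PBS replicate 1 close to the IVIg values. Ly6c2, the main Ly6C gene, had 253, 343 and 528 CPM in the IVIg libraries and 524, 430 and 414 CPM in the PBS libraries. Ccr2, the receptor that brings classical monocytes out of bone marrow, had 1684, 853 and 2326 CPM in the IVIg libraries and 2611, 1092 and 1835 CPM in the PBS libraries. For both genes, IVIg replicate 3 lay among or above the PBS libraries.

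Chil3, a chitinase-like protein of classical monocytes and neutrophils, had 913, 2047 and 1608 CPM in the IVIg libraries, against 6576, 3165 and 1141 CPM in the PBS libraries. PBS replicate 3 was below IVIg replicates 2 and 3, and the log2 fold change of -1.25 ± 0.46 (SE) was -0.50 without PBS replicate 1. Thbs1, the matrix protein thrombospondin, had 12.98, 4.75 and 6.17 CPM in the IVIg libraries, against 16.1, 10.3 and 44.2 CPM in the PBS libraries, so PBS replicate 3 set most of the gap. Sirpb1a, an activating signal-regulatory protein, had a positive log2 fold change, with 121, 209 and 170 CPM in the IVIg libraries and 94.0, 125 and 85.1 CPM in the PBS libraries.

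**Figure D2:**
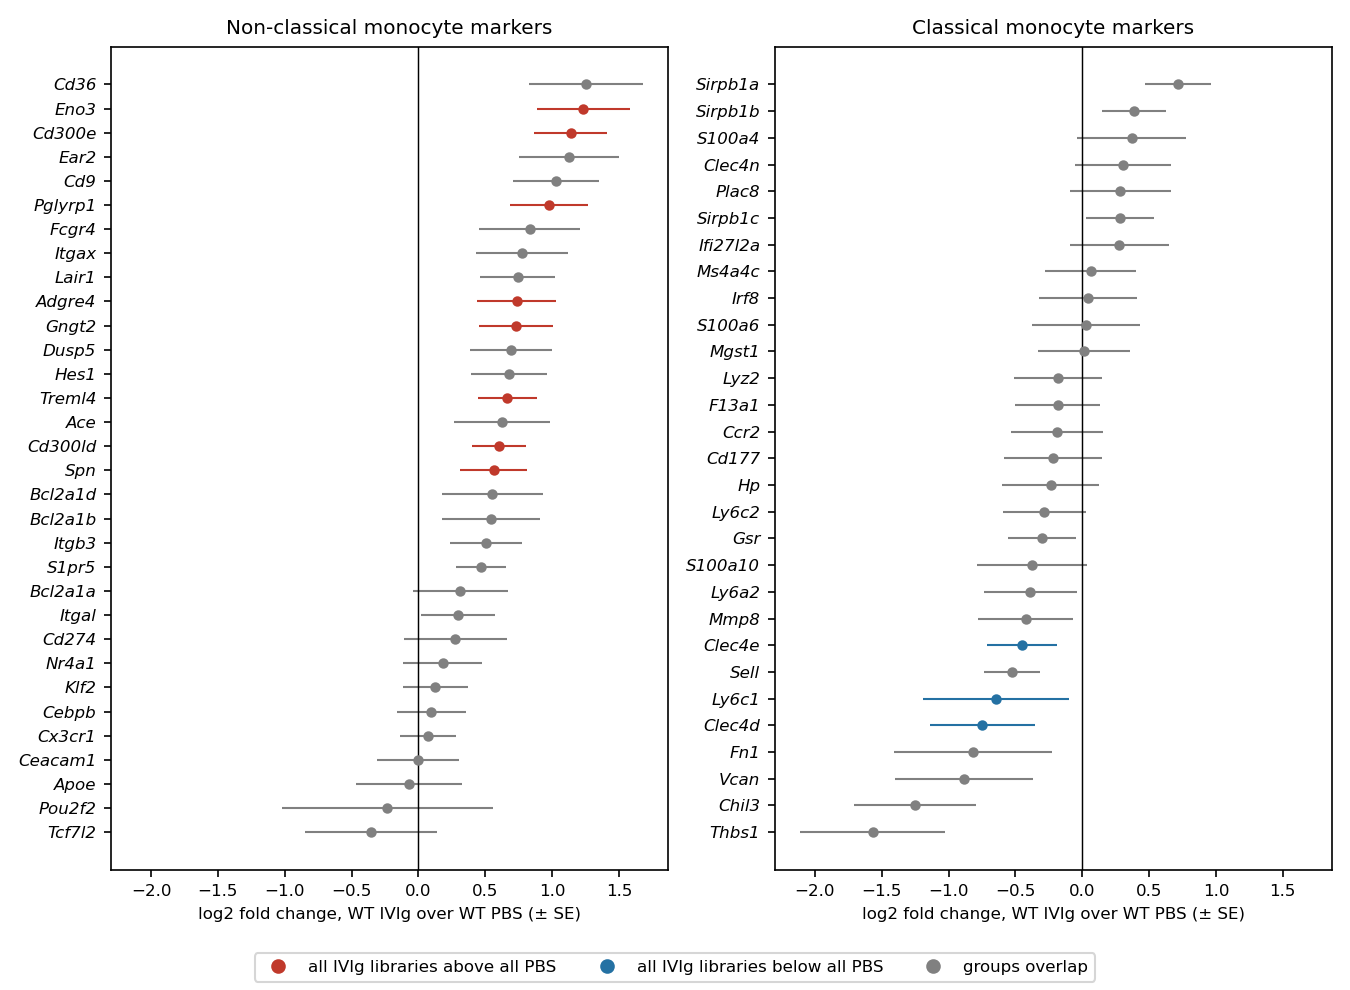
Points show the log2 fold change of WT IVIg over WT PBS, with its standard error as a bar, for the 32 non-classical markers at left and the 29 classical markers at right. Red points mark the 8 genes whose IVIg libraries all lay above the PBS libraries and blue points the 3 whose IVIg libraries all lay below, and the classical markers lie on both sides of 0.

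The promoters of 3 of the 8 non-classical markers are shown because they hold the core of the site bound by PU.1, the factor that directs monocyte development. The windows run from 250 bases before to 50 after the gene's start, from RefSeq on GRCm38.p6, a build other than that of the counts, and 28 of the 32 markers had a window. Capitals mark matches on either strand to PU.1 (GAGGAAG), C/EBP (TTGCNNAA) and KLF (CCACACCC), and no 2 matches overlap in these windows. Adgre4 lies on the plus strand at chr17:55749734-55750033, Cd300ld on the minus strand at chr11:114989837-114990136 and Pglyrp1 on the plus strand at chr7:18884440-18884739.
Adgre4: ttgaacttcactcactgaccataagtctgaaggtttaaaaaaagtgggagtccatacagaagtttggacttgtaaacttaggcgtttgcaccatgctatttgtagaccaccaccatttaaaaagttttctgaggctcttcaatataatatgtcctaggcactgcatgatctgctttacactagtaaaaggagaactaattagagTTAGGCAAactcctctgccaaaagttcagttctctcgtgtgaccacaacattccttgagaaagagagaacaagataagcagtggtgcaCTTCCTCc
Cd300ld: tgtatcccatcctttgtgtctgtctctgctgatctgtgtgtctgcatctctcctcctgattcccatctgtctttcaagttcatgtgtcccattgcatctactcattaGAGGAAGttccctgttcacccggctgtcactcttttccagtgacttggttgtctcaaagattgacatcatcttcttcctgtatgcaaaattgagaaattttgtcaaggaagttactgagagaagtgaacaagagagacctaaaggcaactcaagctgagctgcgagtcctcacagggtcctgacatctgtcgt
Pglyrp1: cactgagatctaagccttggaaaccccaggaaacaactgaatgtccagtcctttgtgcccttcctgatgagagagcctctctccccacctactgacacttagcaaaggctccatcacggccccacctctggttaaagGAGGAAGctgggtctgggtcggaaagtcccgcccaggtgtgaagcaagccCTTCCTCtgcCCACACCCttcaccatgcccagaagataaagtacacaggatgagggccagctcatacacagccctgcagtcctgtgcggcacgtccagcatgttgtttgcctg
The PU.1 core was found in 11 of the 28 non-classical markers with a window (39.3%), and in 4152 of all 27025 genes with one (15.4%). The 11 include the related genes Bcl2a1a, Bcl2a1b and Bcl2a1d, each counted on its own. The share over all genes is not limited to genes expressed in monocytes. The C/EBP motif was in 3 of the 28 (10.7%), against 12.2% of all genes, and the NR4A core AAGGTCA was in 0 of the 28, against 5.38% of all genes. A match describes the letters of the window, and no binding was measured.

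The genes with the smallest unadjusted p had different functions. Pparg, a nuclear receptor that governs lipid uptake in macrophages, had the smallest p among the higher genes. It had 46.1, 68.2 and 60.8 CPM in the IVIg libraries, against 27.5, 32.4 and 22.4 CPM in the PBS libraries. Pparg was 2.13-fold higher with IVIg, the groups were well apart, and its log2 fold change stayed between 0.96 and 1.23 in all 17 alternative settings. Mccc2, a subunit of the mitochondrial enzyme that breaks down leucine, had 13.5, 20.98 and 15.9 CPM in the IVIg libraries, against 6.61, 5.63 and 9.08 CPM in the PBS libraries. Ikzf3, the lymphoid transcription factor Aiolos, had 31.3, 22.5 and 19.97 CPM in the IVIg libraries, against 12.4, 7.85 and 13.03 CPM in the PBS libraries. Ikzf3 was highest in IVIg replicate 1, the library that otherwise resembled PBS replicate 3.

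Others of the 12 higher genes were far higher in 1 library. Tef, a clock-controlled transcription factor, had 26.6, 57.4 and 17.6 CPM in the IVIg libraries, against 8.09, 14.4 and 10.7 CPM in the PBS libraries. Cyb561, a membrane cytochrome, had 8.39, 24.8 and 10.4 CPM in the IVIg libraries, against 6.94, 7.11 and 4.51 CPM in the PBS libraries. Both were highest in IVIg replicate 2, and without it the log2 fold change of Cyb561 was 0.60 in place of 1.24 and that of Tef 0.997 in place of 1.61. Slc5a11, a sodium-coupled inositol transporter, averaged 5.11 ± 1.93 CPM in IVIg libraries and 2.18 ± 0.36 CPM in PBS libraries (SD, n = 3 each). Vegfc, a growth factor for lymphatic vessels, averaged 11.1 ± 3.52 CPM in IVIg libraries and 4.99 ± 1.999 CPM in PBS libraries (SD, n = 3 each).

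Rn18s and Lars2 moved together across libraries. Lars2, the mitochondrial leucyl-tRNA synthetase, had 127, 457 and 946 CPM in the IVIg libraries, against 148, 205 and 104.3 CPM in the PBS libraries. Rn18s had 2368, 6951 and 14590 CPM in the IVIg libraries, against 2666, 2229 and 1191 CPM in the PBS libraries. In both, IVIg replicate 1 lay within the PBS range and IVIg replicate 3 was highest, and without that library the log2 fold change of Lars2 was 0.94 in place of 1.74.

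Maf, a transcription factor of macrophage maturation, had 28.4, 13.03 and 24.1 CPM in the IVIg libraries, against 50.3, 44.4 and 53.1 CPM in the PBS libraries. All PBS libraries were close together and clear of the IVIg libraries, and the log2 fold change was -1.18 ± 0.29 (SE). Mmp19, a matrix metalloproteinase, had 16.7, 5.94 and 12.7 CPM in the IVIg libraries, against 20.0, 45.5 and 27.1 CPM in the PBS libraries. Rhou, a small GTPase, had 11.6, 9.18 and 27.3 CPM in the IVIg libraries, against 45.6, 29.4 and 35.9 CPM in the PBS libraries, IVIg replicate 3 nearly reaching PBS replicate 2. Lamc1, a laminin chain, averaged 2.09 ± 0.63 CPM in IVIg libraries and 5.34 ± 1.31 CPM in PBS libraries (SD, n = 3 each).

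Several lower genes were far higher in PBS replicate 3 than in the other libraries. Ccr1, a chemokine receptor, had 12.8, 7.11 and 15.3 CPM in the IVIg libraries, against 32.7, 18.6 and 125 CPM in the PBS libraries. Ier3, an immediate early gene, had 1.59, 1.13 and 1.51 CPM in the IVIg libraries, against 1.64, 1.83 and 10.5 CPM in the PBS libraries. Neither overlapped, yet without PBS replicate 3 the log2 fold change of Ccr1 was -1.13 in place of -2.33 and that of Ier3 -0.31 in place of -1.73. Bcl3, a nuclear partner of NF-kB, had 30.8, 21.1 and 51.9 CPM in the IVIg libraries and 40.1, 50.7 and 158 CPM in the PBS libraries. Treml2, a receptor of the TREM family, had 10.9, 3.42 and 8.75 CPM in the IVIg libraries and 15.1, 9.79 and 41.8 CPM in the PBS libraries. The same library was highest for Gpr146, an orphan receptor linked to cholesterol, and Irf2bp2, a corepressor, and the log2 fold change of Irf2bp2 was -0.48 without it in place of -1.14.

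Emp1, an epithelial membrane protein, had the opposite outlier. Emp1 had 5.23, 4.40 and 6.66 CPM in the IVIg libraries, against 24.5, 25.8 and 2.48 CPM in the PBS libraries. PBS replicate 3 lay below all IVIg libraries while the other two PBS libraries were several times above them. Without PBS replicate 3, Emp1 was the single gene called, with a log2 fold change of -2.21 and an adjusted p of 0.0315 in edgeR, and Gm9574 was then not called.

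**Figure D3:**
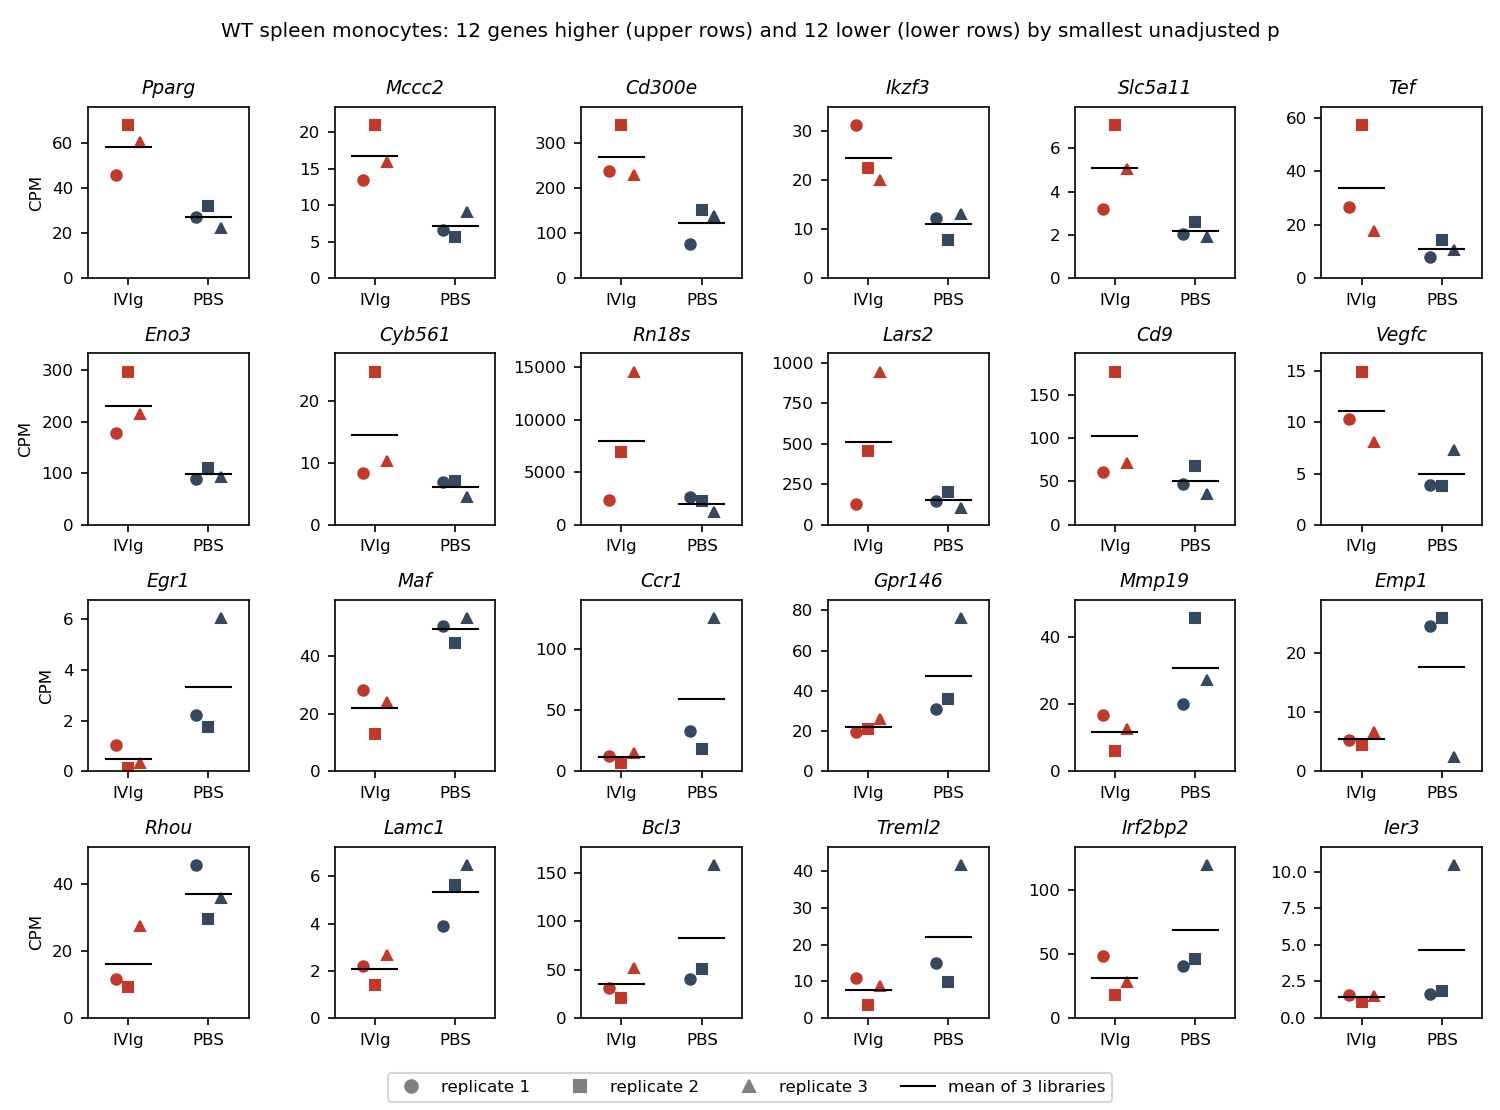
Each panel shows the CPM of a gene in the 3 WT IVIg libraries (left, red) and the 3 WT PBS libraries (right, dark blue), with symbols for replicates and a line at the mean. The upper rows hold the 12 higher and the lower rows the 12 lower genes of the naming rule, and PBS replicate 3 (triangle) stands apart in Ccr1, Bcl3, Treml2, Irf2bp2 and Ier3.

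No gene of the Fc receptors was called. Of 11 genes in the list of Fc gamma receptors, FcRn and common chain, 8 had a positive and 3 a negative log2 fold change. In none were the groups apart, set against 3.44% of all genes above and 2.88% below. Fcgr2b, the inhibitory receptor, averaged 258 ± 52.1 CPM in IVIg libraries and 270 ± 53.5 CPM in PBS libraries (SD, n = 3 each), a log2 fold change of -0.07 whose sign turned under other settings. Fcgr3 averaged 348 ± 70.9 CPM in IVIg libraries and 363 ± 39.3 CPM in PBS libraries, and its sign, -0.06 on the log2 scale, turned with limma voom and without some libraries. Fcgr1, the high-affinity receptor, averaged 131 ± 41.0 CPM in IVIg libraries and 176 ± 30.4 CPM in PBS libraries.

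Fcgr4 had 78.6, 314 and 127 CPM in the IVIg libraries, against 74.1, 123 and 94.8 CPM in the PBS libraries. IVIg replicate 2 alone was far above the PBS libraries, and the log2 fold change of 0.83 was 0.08 without it. Fcgrt had 85.3, 169 and 125 CPM in the IVIg libraries, against 98.3, 89.5 and 70.2 CPM in the PBS libraries, and IVIg replicate 1 lay within the PBS range. Fcer1g averaged 576 ± 128 CPM in IVIg libraries and 454 ± 44.0 CPM in PBS libraries (SD, n = 3 each). Clec7a, which encodes Dectin-1, had 483, 766 and 739 CPM in the IVIg libraries and 821, 522 and 360 CPM in the PBS libraries, so its groups overlapped widely. Of 20 genes of Dectin-1 and CARD9 signalling, 6 had a positive and 14 a negative log2 fold change, with a median of -0.07 that turned to 0.04 without IVIg replicate 2.

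Downstream kinases and inhibitory receptors showed scattered differences. Of 32 kinases and adapters of Fc receptor signalling, 3 (9.38%) had all IVIg libraries above the PBS libraries, Fgr and Fyn among them, and 2 (6.25%), Lyn and Wipf1, had all below, set against 3.44% and 2.88% of all genes. The Src family kinase Fgr had 782, 811 and 821 CPM in the IVIg libraries, against 699, 732 and 758 CPM in the PBS libraries. Its relative Lyn had 868, 790 and 855 CPM in the IVIg libraries, against 879, 1024 and 935 CPM in the PBS libraries, and both gaps are small beside the level. Cd33, an inhibitory lectin that binds sialic acid, had 42.3, 38.8 and 34.1 CPM in the IVIg libraries, against 83.8, 66.3 and 65.6 CPM in the PBS libraries. Cd33 kept its groups well apart, with a log2 fold change of -0.90 ± 0.27 (SE) that stayed between -1.07 and -0.75 in all 17 settings.

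Siglec1, the sialic acid lectin CD169, had 38.6, 42.8 and 32.2 CPM in the IVIg libraries, against 75.2, 74.4 and 89.1 CPM in the PBS libraries. Siglec1 was about as far apart as Cd33, with a log2 fold change of -1.07 ± 0.40 (SE). Siglece, another lectin of this family, had 23.6, 29.4 and 22.8 CPM in the IVIg libraries, against 29.9, 33.3 and 43.1 CPM in the PBS libraries, with IVIg replicate 2 only just below PBS replicate 1. These 3 of 20 galectins and sialic acid lectins (15%) had all IVIg libraries below, set against 2.88% of all genes. In 0 of the 20 they all lay above, set against 3.44% of all genes. Over the 20, 11 had a positive and 9 a negative log2 fold change. The list's median was 0.07, and its sign turned in 4 of 17 settings.

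Siglec1 is also one of the interferon-stimulated genes, a list that leaned low. Of 55 type I interferon stimulated genes, none was called, 8 had a positive and 47 a negative log2 fold change, and the median was -0.26. In 0 the IVIg libraries all lay above the PBS libraries and in 4 (7.27%) they all lay below, set against 2.88% of all genes: Irf7, Ifi205, Slfn1 and Siglec1. Slfn1, a schlafen gene induced by interferon, had 192, 168 and 275 CPM in the IVIg libraries, against 325, 295 and 355 CPM in the PBS libraries. Irf7, the factor that amplifies type I interferon, had 222, 280 and 252 CPM in the IVIg libraries, against 281, 332 and 296 CPM in the PBS libraries, where IVIg replicate 2 and PBS replicate 1 nearly met. The list's median was -0.04 without PBS replicate 3. Of 23 interferon-inducible GTPases and interferon gamma targets, 1 (4.35%), Gbp3, had all IVIg libraries below the PBS libraries, set against 2.88% of all genes. In 0 of the 23 they all lay above, set against 3.44% of all genes. The median of these 23 was -0.10, which was -0.28 without PBS replicate 1, -0.18 without IVIg replicate 2 and -0.05 without PBS replicate 3.

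Immediate early genes, which respond within minutes to stimulation, also leaned low. Of 27 tested, 7 had a positive and 20 a negative log2 fold change, with a median of -0.36, which was -0.19 without PBS replicate 3. In 5 (18.5%) the IVIg libraries all lay below the PBS libraries, and in 1 (3.7%), Dusp2, they all lay above, set against 2.88% and 3.44% of all genes. Egr1, a zinc finger factor, had 1.03, 0.14 and 0.33 CPM in the IVIg libraries, against 2.21, 1.75 and 6.02 CPM in the PBS libraries, all low values. Junb, an AP-1 subunit, had 200, 234 and 226 CPM in the IVIg libraries, against 243, 238 and 411 CPM in the PBS libraries, with PBS replicate 3 apart. Ier2 had 120, 131 and 135 CPM in the IVIg libraries, against 153, 150 and 147 CPM in the PBS libraries. Dusp2, a phosphatase that turns off kinase signalling, had 25.3, 43.5 and 23.99 CPM in the IVIg libraries, against 14.9, 19.6 and 21.9 CPM in the PBS libraries.

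Of 38 transcription factors of the monocyte lineage, 8 had a positive and 30 a negative log2 fold change, with a median of -0.24, which was -0.06 without IVIg replicate 2. In IVIg replicate 1 the list's median lay 0.11 above the WT mean on the log2 scale, against -0.33 and -0.12 in IVIg replicates 2 and 3 and 0.07, 0.12 and 0.21 in the PBS libraries. Pparg had all IVIg libraries above (2.63%), and Maf, Egr1, Cebpd and Batf3 had all below (10.5%), set against 3.44% and 2.88% of all genes. Cebpd, a C/EBP factor, had 48.8, 47.8 and 54.1 CPM in the IVIg libraries, against 57.6, 59.1 and 106 CPM in the PBS libraries.

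Toll-like receptors and their adapters had 5 of 29 members (17.2%) with all IVIg libraries below and 2 (6.9%), Tlr1 and Sarm1, with all above, set against 2.88% and 3.44% of all genes. The 5 were Tlr4, Tlr5, Tlr9, Cd14 and Irak1, and the list's median was -0.07, which was -0.02 without PBS replicate 2. Tlr5, the flagellin receptor, had 7.31, 6.88 and 6.13 CPM in the IVIg libraries, against 12.8, 11.8 and 11.0 CPM in the PBS libraries. Both groups were narrow for Tlr5, and its log2 fold change was -0.81 with an unadjusted p of 0.00216 in edgeR. Cd14, which hands lipopolysaccharide to the Tlr4 complex, had 15.98, 14.9 and 27.8 CPM in the IVIg libraries, against 33.7, 39.4 and 36.3 CPM in the PBS libraries. Tlr4 itself had 25.03, 31.8 and 30.3 CPM in the IVIg libraries, against 33.7, 39.0 and 44.7 CPM in the PBS libraries, a gap under 2 CPM at its closest.

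Of the 8 CD300 genes tested, 6 had a positive log2 fold change and 4 (50%, set against 3.44% of all genes) had all IVIg libraries above the PBS libraries: Cd300e, Cd300ld, Cd300c2 and Cd300ld3. Of these, Cd300e and Cd300ld are also in the non-classical list. Cd300c2, an activating member, had 146, 278 and 199 CPM in the IVIg libraries, against 126, 143 and 110 CPM in the PBS libraries, with IVIg replicate 1 just above PBS replicate 2. The inhibitory Cd300a had 600, 909 and 763 CPM in the IVIg libraries and 640, 836 and 574 CPM in the PBS libraries, which overlap. These genes lie in a cluster of near relatives, so the split of reads among them is uncertain.

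Lipid-handling genes leaned high. Of 31 tested, 22 had a positive and 9 a negative log2 fold change, with a median of 0.25, which was 0.13 without PBS replicate 1 or without IVIg replicate 2. In 5 (16.1%, set against 3.44% of all genes) all IVIg libraries lay above: Pparg, Mylip, Apoc2, Abcg1 and Hadha. Mylip, a ligase that degrades the LDL receptor, had 35.9, 55.7 and 31.1 CPM in the IVIg libraries, against 22.2, 18.3 and 24.7 CPM in the PBS libraries. Abcg1, a cholesterol exporter, had 166, 160 and 198 CPM in the IVIg libraries, against 103, 143 and 142 CPM in the PBS libraries. Apoc2, the cofactor of lipoprotein lipase, had 70.2, 94.6 and 136 CPM in the IVIg libraries, against 60.8, 67.5 and 70.1 CPM in the PBS libraries, nearly touching. Lpl, the lipase itself, ran against the list, with 95.0, 39.9 and 108 CPM in the IVIg libraries and 370, 119 and 24.6 CPM in the PBS libraries, and no order between the groups.

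**Figure D4:**
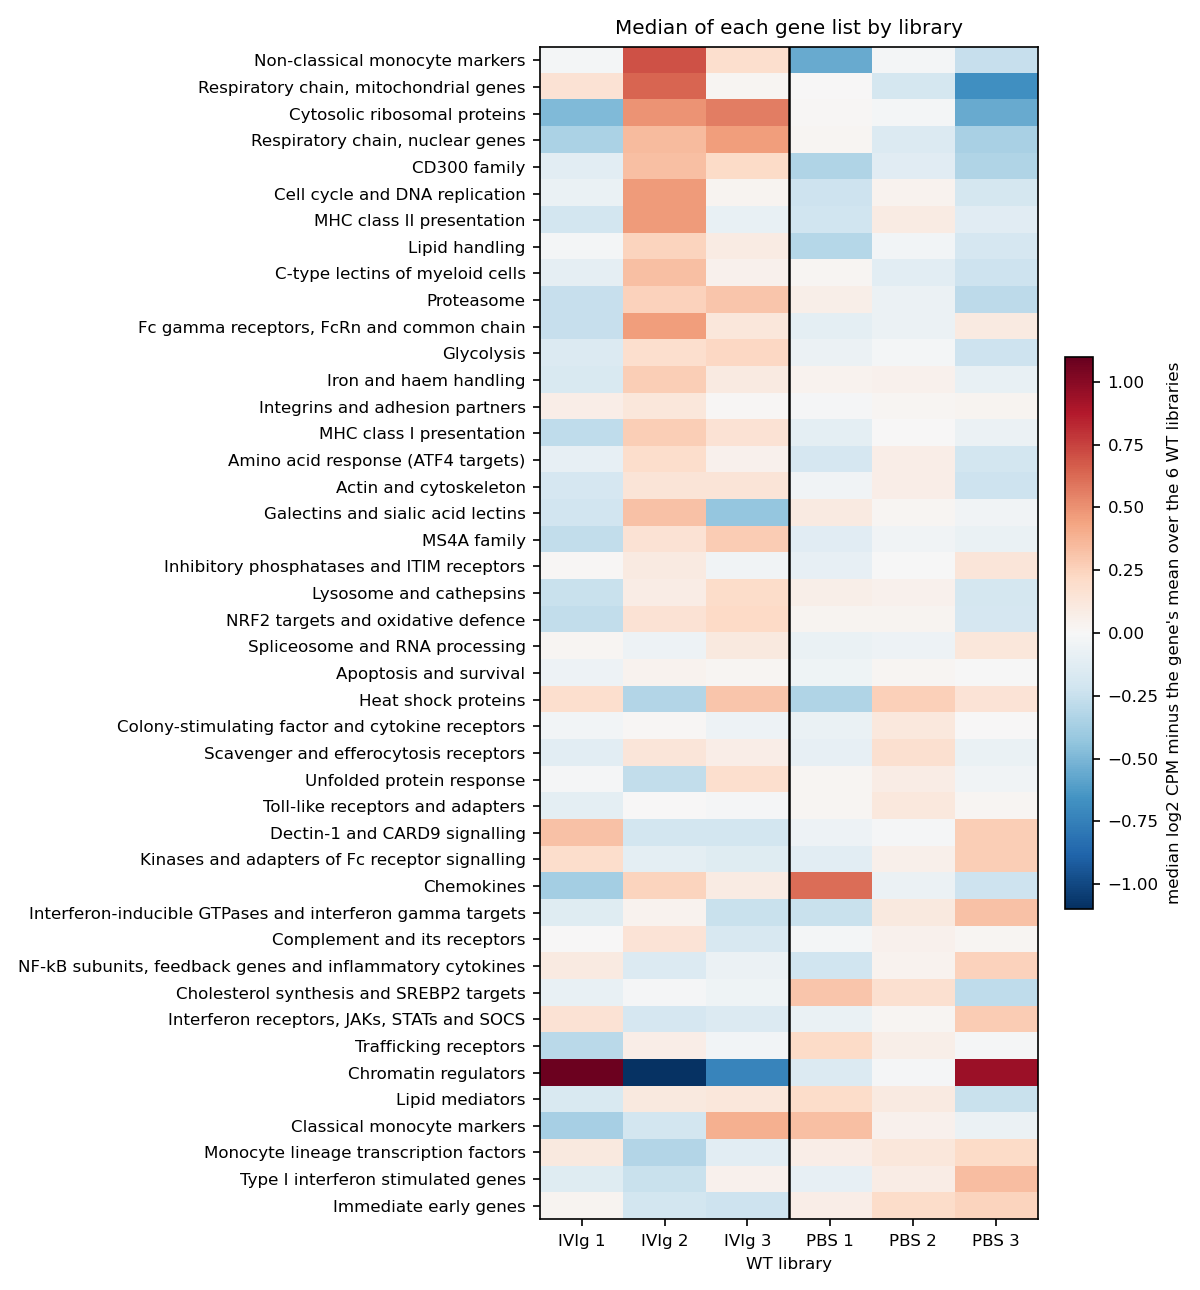
Colours give, for each of the functional gene lists and each WT library, the median over members of log2 CPM minus the gene's mean over the 6 WT libraries, with IVIg libraries left of the line and PBS libraries right. Lists run from the highest to the lowest median log2 fold change, and in chromatin regulators IVIg replicate 1 (1.08) and PBS replicate 3 (0.94) share a colour against IVIg replicates 2 (-1.09) and 3 (-0.73).

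The lists of housekeeping genes followed libraries more than treatment. All 79 cytosolic ribosomal protein genes tested had a positive log2 fold change, with a median of 0.42 (0.25 without IVIg replicate 3, 0.69 without IVIg replicate 1). In 0 of them were the groups apart, set against 3.44% of all genes above and 2.88% below. Their median deviation on the log2 scale was -0.49, 0.50 and 0.56 in the IVIg libraries and 0.01, -0.02 and -0.56 in the PBS libraries, so IVIg replicate 1 was as low as PBS replicate 3. Rpl3 had 648, 1145 and 1192 CPM in the IVIg libraries and 784, 754 and 523 CPM in the PBS libraries. The 73 nuclear genes of the respiratory chain were likewise all positive, with a median of 0.36 (0.19 without IVIg replicate 3, 0.57 without IVIg replicate 1). In 1 of the 73 (1.37%) all IVIg libraries lay above and in 0 all lay below, set against the same shares of all genes. Chromatin regulators ran the other way: 34 of 44 were negative, and the median deviation was 1.08, -1.09 and -0.73 in the IVIg libraries and -0.15, -0.02 and 0.94 in the PBS libraries. The list's median log2 fold change, -0.18, was -1.37 without IVIg replicate 1 and turned to 0.16, 0.11 and 0.03 without PBS replicate 3, IVIg replicate 2 and IVIg replicate 3.

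RNA of other cell types varied between libraries. Markers of conventional dendritic cells summed to 2969, 3155 and 2666 CPM in the IVIg libraries and 2649, 2718 and 2740 CPM in the PBS libraries, and those of red pulp macrophages to 1521, 2050 and 1892 CPM in the IVIg libraries and 1517, 1657 and 1253 CPM in the PBS libraries. Both lists hold genes that monocytes also express, such as Itgax and Treml4. The 26 T cell markers summed to 40.9, 73.8 and 24.7 CPM with IVIg and 43.1, 51.4 and 66.1 CPM with PBS. The 22 B cell markers summed to 505.2, 490.7 and 728.2 CPM with IVIg and 469.1, 391.1 and 415.8 CPM with PBS, and these sums did not overlap. Ighm, their largest member, did, with 295.5, 242.9 and 351.1 CPM against 264.7, 176 and 196 CPM. Of the 22, 11 had a positive and 11 a negative log2 fold change. In 0 of the 22 were the groups apart, set against 3.44% of all genes above and 2.88% below. The 25 neutrophil markers summed to 1293, 2327 and 1961 CPM with IVIg and 7038, 3518 and 1554 CPM with PBS. Most of that sum was Chil3, which is also a classical marker. Chil3 alone had 913, 2047 and 1608 CPM with IVIg and 6576, 3165 and 1141 CPM with PBS. Over the 6 libraries, Csf3r lay between 114.5 and 243.8 CPM and S100a9 between 0.82 and 21.5 CPM. Plasma cell markers summed to 479, 516 and 1205 CPM in the IVIg libraries and 582, 632 and 562 CPM in the PBS libraries. Igkc, the kappa light chain constant gene, had 16.2, 30.2 and 206 CPM in the IVIg libraries and 11.9, 32.3 and 17.9 CPM in the PBS libraries, so IVIg replicate 3 alone was high. Without that library the log2 fold change of Igkc was 0.16 in place of 2.02. The 18 erythroid markers summed to 15.5, 30.6 and 14.5 CPM in the IVIg libraries and 10.1, 13.96 and 17.9 CPM in the PBS libraries. Car1, Epb42 and Gata1 were at 0 in all 6 libraries. Of the 9 erythroid markers tested, none was called, and 8 had a positive and 1 a negative log2 fold change. The erythroid median was 1.04, and 0.37 without IVIg replicate 2. Among other lists, the median log2 fold change was 0.31 in cell cycle and DNA replication genes (45 of 58 positive), 0.28 in MHC class II presentation genes (16 of 20) and 0.22 in proteasome genes (28 of 31). Without IVIg replicate 2 these medians were 0.10, -0.06 and 0.13.

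To place the WT values, the same 24 genes were read in the knockout groups, where IVIg is again set against PBS of the same genotype. The test of the difference between the IVIg effect in WT and in the Dectin-1 knockout called 0% of the 17040 genes in edgeR, with 639 at an unadjusted p under 0.05 and a smallest adjusted p of 0.998. The same test against the FcgRIIb knockout also called 0%, with 487 at an unadjusted p under 0.05 and a smallest adjusted p of 1, and that genotype holds a PBS library of only 719494 counts. DESeq2 called 1 gene in each, Klf5 and Trpm3, and Trpm3 had 1 count in IVIg replicate 2 and 0 in the other WT libraries. The edgeR tests thus called no gene whose IVIg effect differed between WT and a knockout, and a missed threshold does not show that the genotypes respond alike.

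Pparg had a log2 fold change of 1.09 in WT, -0.31 in the Dectin-1 knockout and 0.09 in the FcgRIIb knockout. Cd300e had a log2 fold change of 1.14 in WT, -0.34 in the Dectin-1 knockout and 0.59 in the FcgRIIb knockout, and Eno3 one of 1.23, -0.49 and 0.59 in the same order. Egr1 had -2.76 in WT, 2.52 in the Dectin-1 knockout and -0.33 in the FcgRIIb knockout. Its level was low in the Dectin-1 knockout too, with 2.969, 1.791 and 2.495 CPM with IVIg and 0.4242, 0.292 and 0.5208 CPM with PBS. The FcgRIIb knockout PBS libraries had 1.909, 16.94 and 0.8493 CPM. The 16.94 CPM came from the shallow library, where 3 counts are 4.235 CPM. The WT value was furthest from 0 in 24 of the 24 genes, but they were ranked on WT, which favours that, so this is a description. Over the 32 non-classical markers, the median difference of the log2 fold change was 0.69 for WT minus the Dectin-1 knockout. For WT minus the FcgRIIb knockout it was 0.21, against -0.0005 and -0.0099 over all genes in the same order. In WT alone the markers' median was 0.58, and 0.34 without IVIg replicate 2. Cd300e had 189, 292 and 289 CPM in the Dectin-1 knockout PBS libraries, against 75.8, 152 and 137 CPM in WT PBS. Eno3 had 206, 239 and 282 CPM against 89.3, 111 and 93.8 CPM in these groups. Itgax overlapped, with 224, 307 and 237 CPM against 151, 280 and 227 CPM. The part of PBS levels in the difference was not tested.

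**Figure D5:**
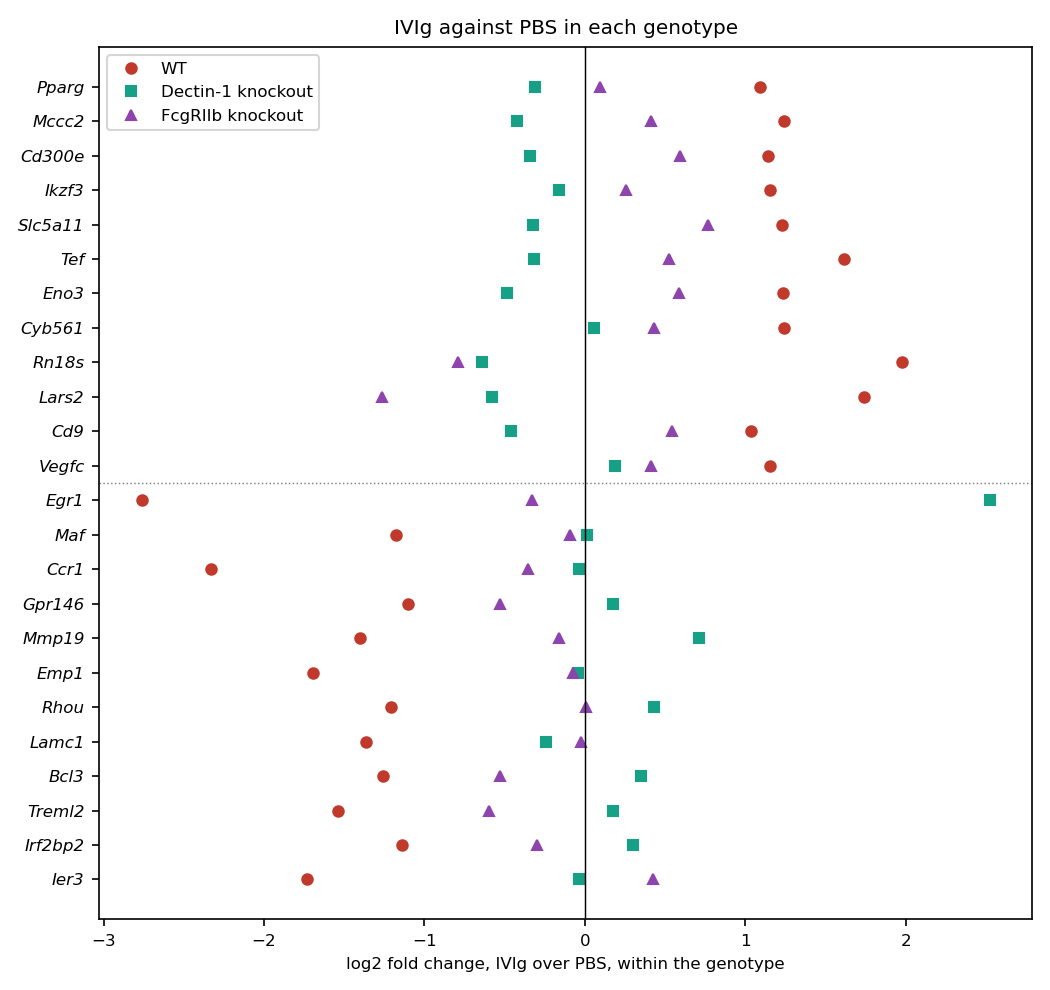
Points give the log2 fold change of IVIg over PBS within WT (red circles), the Dectin-1 knockout (green squares) and the FcgRIIb knockout (purple triangles) for the 24 genes ranked on WT. The WT points lie furthest from 0 in 24 of the 24 genes, which the ranking on WT favours. Egr1 spans from -2.76 in WT to 2.52 in the Dectin-1 knockout, on low CPM values in both genotypes.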

How the data were processed

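RNA of monocytes sorted from the spleens of 18 mice, 3 independent mice a group per the series' design text, was turned into sequencing libraries by a strand-preserving mRNA kit (per the labels' protocols). Reads were aligned with STAR to GRCm39, per the submitters' processing notes. The authors deposited raw counts per gene and each gene's exon length, made with featureCounts 2.0.2 on Ensembl release 104, per the file headers. The recorded command sets no strand option and counts a read for each gene it overlaps, which leaves genes that overlap, on either strand, unresolved. The 18 deposited columns that matched no sample were not used. Of 55416 genes, 1492 lacked a symbol and were kept, at 0.201% to 0.323% of a WT library.

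From the counts, genes passing filterByExpr (17040) entered the quasi-likelihood test of edgeR 4.0.16 (R 4.3.3, non-legacy fit) after TMM scaling, in 1 model of the 18 libraries that left 12 residual degrees of freedom. The contrasts were WT IVIg minus WT PBS and its difference from each knockout. A call needs an adjusted p under 0.05. Standard errors belong to log2 fold changes. The test was tested on simulated data. Named genes are, in each direction, 12 called genes of at least 1 CPM with a proper symbol, places left over being filled by the smallest unadjusted p at a log2 fold change of at least 1. To these come 2 members of each of 56 lists and the Fc receptors and Clec7a. Other members are named because their groups do not overlap or for their known role, chosen after their values were seen. The lists and members were chosen with earlier results of these data known. Other settings used DESeq2 1.42.0, limma 3.58.1, RLE, other filters, removal of the length trend and libraries left out. Replicates were numbered in accession order, as names. Some title codes are shared between libraries, and what the codes mean is not given. Figures were drawn with matplotlib 3.10.9.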

Additional observations from a re-analysis of the deposited data

How the results depend on the processing

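The 1 lower call, Gm9574, kept its call in 6 settings (RLE, no low-count filter, without the shallow library, without immunoglobulin, haemoglobin and mitochondrial genes, with the length trend removed, and without PBS replicate 2). The count of lower calls was 0 with limma voom, the legacy fit, 1 CPM in 3 libraries, the 6 WT libraries alone and the most alike pair left out, and 0 to 1 with 1 WT library left out. Genes at an unadjusted p under 0.05, 429 here, were 233 with DESeq2, 1837 with limma voom, 214 with the legacy fit and 843 without the most alike pair, and ran between 256 (without IVIg replicate 2) and 1833 (without IVIg replicate 1). The interaction with each knockout gave 1 call with DESeq2, in place of 0. Of 122 named genes 109 kept their sign in every setting in which they were tested, as did the medians of 27 of 56 lists. The sign turned for Cish (0.50) and Fcgr3 (0.0332) with limma voom, Ms4a4a (-0.0112) and Fcgr2b (0.0613) with the length trend removed, and Fcgr2b (0.058), Socs3 (0.42), Ms4a1 (0.19) and Dnajb4 (-0.0741) without the most alike pair. With 1 library left out the log2 fold change ran between -0.24 and 0.0246 for Fcgr2b, -0.19 and 0.0918 for Fcgr3, -0.87 and 0.31 for Socs3, -0.74 and 0.41 for Ms4a1, -0.70 and 0.0044 for Il4ra, -2.49 and 0.0571 for Kdm6b, -0.0174 and 0.59 for Clec7a, -0.0589 and 1.26 for Ccl5, -0.0675 and 1.04 for Klrd1 and -2.10 and 9.31 for Ighg2c. The cause was not tested. No paired analysis was possible because the labels give no replicate numbers, and those used here follow accession order. Genes with a few counts, such as Klf5, are limited by depth, since 3 counts are up to 0.0820 CPM.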
